A study of Homo sapiens with 36 samples.

Results

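The 10 genes described here are DUSP2, DUSP4, DUSP5, DUSP6, DUSP10, SPRY1, SPRY2, SPRED1, SPRED2 and ETV5, which code for dual-specificity phosphatases, Sprouty and SPRED proteins and a PEA3-type ETS factor, and are used as transcript readouts of the ERK MAP kinase pathway. Their rows were taken by gene symbol, and all 10 were found among the 37549 symbols of the count file. The counts come from 36 RNA-sequencing libraries of rRNA-depleted total RNA from MEC1, JVM2 and EHEB, 3 leukaemic B-cell lines, with 12 libraries per line and 3 per group. Each line received 50 µM fludarabine (a purine analogue that blocks DNA synthesis), 5 µM ibrutinib (a covalent inhibitor of Bruton tyrosine kinase), 10 µM idelalisib (an inhibitor of the delta isoform of PI3 kinase) or the vehicle DMSO, for 48 h (MEC1), 72 h (JVM2) or 96 h (EHEB). The paper's 72 h viability assays put the half-maximal inhibitory dose of each drug below these doses in MEC1 and JVM2 control cells. A part of lost viability in the results below was not tested. MEC1 carries mutated p53, whereas JVM2 and EHEB have the wild-type protein. Each line had its own exposure time, so line and time cannot be told apart here, and cells given neither DMSO nor a drug were not analysed here. Within a line, the DMSO and fludarabine libraries carry neighbouring numbers in the labels, and those of the kinase inhibitors carry a separate run of higher numbers that holds no DMSO library. What the numbers stand for is not given in the sources used here, so the number run and the action of an inhibitor against DMSO cannot be told apart. Below, the libraries of a group are called 1, 2 and 3 by rising label number, and values are listed in that order.

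The ERK pathway passes a signal from receptors through RAS, RAF and MEK to the kinases ERK1 and ERK2, and one of its outputs is the transcription of its own brakes. Dual-specificity phosphatases remove phosphate from MAP kinases, Sprouty and SPRED proteins act higher up between the receptor, RAS and RAF, and ETV5 is a transcription factor that ERK activity induces. In B cells the antigen receptor, through SYK, Bruton tyrosine kinase and PI3 kinase delta, is one of the inputs to RAS and ERK.

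A RefSeq start site on GRCh38.p14 was matched for 7 of the 10 genes (DUSP2, DUSP6, DUSP10, SPRY1, SPRY2, SPRED1 and SPRED2). The 250 bases upstream of the outermost site of each gene were searched on both strands for 5 motifs. DUSP4, DUSP5 and ETV5 had no matched entry in the set of start sites used here. The windows of 4 genes are shown, since DUSP6 and SPRED2 fell with both kinase inhibitors in MEC1 and EHEB, DUSP2 moved in the other direction in MEC1, and DUSP10 passed the test with neither inhibitor in any line. SPRY2 and SPRED1 also fell with both inhibitors in MEC1 and EHEB, and their windows, which hold GC boxes, are not shown. A link between the motifs and the drug responses was not tested. Capitals mark the ETS core (CGGAAG, read as CTTCCG on the other strand) in DUSP6 and the GC boxes (GGGCGG, read as CCGCCC on the other strand) in DUSP2 and DUSP10.
DUSP6, chr12:89352502-89352751, minus strand: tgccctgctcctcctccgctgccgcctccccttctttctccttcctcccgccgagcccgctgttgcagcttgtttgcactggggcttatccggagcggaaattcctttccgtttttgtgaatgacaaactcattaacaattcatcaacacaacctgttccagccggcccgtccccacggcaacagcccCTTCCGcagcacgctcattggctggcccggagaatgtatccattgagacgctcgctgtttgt
SPRED2, chr2:65432600-65432849, minus strand: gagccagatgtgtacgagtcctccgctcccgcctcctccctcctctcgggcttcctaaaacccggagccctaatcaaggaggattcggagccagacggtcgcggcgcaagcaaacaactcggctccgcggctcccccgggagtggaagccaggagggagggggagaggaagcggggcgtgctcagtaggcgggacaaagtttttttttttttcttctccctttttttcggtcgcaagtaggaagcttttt
DUSP2, chr2:96145441-96145690, minus strand: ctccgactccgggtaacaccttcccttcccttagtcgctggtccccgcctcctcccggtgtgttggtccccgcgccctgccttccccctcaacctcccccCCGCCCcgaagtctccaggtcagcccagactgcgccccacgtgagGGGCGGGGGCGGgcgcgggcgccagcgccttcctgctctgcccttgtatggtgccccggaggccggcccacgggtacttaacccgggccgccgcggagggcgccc
DUSP10, chr1:221742090-221742339, minus strand: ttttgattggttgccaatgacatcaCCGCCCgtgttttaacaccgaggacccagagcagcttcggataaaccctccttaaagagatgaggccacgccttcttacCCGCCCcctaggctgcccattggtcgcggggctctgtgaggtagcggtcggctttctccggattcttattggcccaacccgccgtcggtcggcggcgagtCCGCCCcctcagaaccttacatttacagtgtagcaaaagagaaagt
The single match of CGGAAG lay at positions -62 to -57 from the DUSP6 start, and 16.5% of 35116 RefSeq windows of this length hold at least 1 such match. Shorter or other forms of the ETS site, such as GGAAG in the SPRED2 window, were not counted. GC boxes were present in 4 of the 7 windows against 42.6% of all windows, with 3 in DUSP2, 3 in DUSP10, 2 in SPRY2 and 1 in SPRED1. A CRE half-site (TGACG) was found at positions -190 to -186 from the SPRY2 start and in 21.2% of all windows. The AP-1 site (TGANTCA, in 6.57% of all windows) and the CArG box (in 1.16%) had no match in the 7 windows, and none of the matches listed for these genes overlapped another motif. These are matches of letters within a window and not measured binding sites.

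The total count per library was between 26590705 and 53538925, and the replicate libraries of a group differed by more than counting error in all 36 pairs. The labels give the libraries of a group as triplicates without saying whether they are separate cultures, so the p-values measure the spread between these libraries, which may be technical. The B-cell genes MS4A1, CD79A, CD79B, CD22 and PAX5 were all present in every library. Their summed level was 915 to 979 CPM (counts scaled to the library's total, with TMM factors within a line) with DMSO in MEC1, 1160 to 1180 CPM in JVM2 and 1510 to 1560 CPM in EHEB. With fludarabine it was 821 to 834, 596 to 659 and 843 to 949 CPM, with ibrutinib 1450 to 1620, 1260 to 1290 and 1460 to 1610 CPM, and with idelalisib 1470 to 1530, 1260 to 1290 and 1470 to 1530 CPM in the same order of lines. The T-cell genes CD3D, CD3E, CD3G and CD2 were each at 0 in at least 1 library. Their sum with DMSO, fludarabine, ibrutinib and idelalisib was 9.63 to 12.4, 11.6 to 15.6, 5.23 to 5.91 and 3.38 to 6.07 CPM in EHEB and 0.438 to 0.704, 2.38 to 3.6, 0 to 0.405 and 0.101 to 0.593 CPM in MEC1, and it was at most 0.511 CPM in JVM2. Among myeloid genes CD14 had 0 to 15 counts per library, while the sum of CD14, CSF1R and ITGAM was 6.81 to 8.59 CPM with DMSO in MEC1 against 29.6 to 33.2 CPM with ibrutinib and 42.6 to 45.6 CPM with idelalisib. In JVM2 that sum was 10.6 to 13.6 CPM with DMSO, 39.2 to 40.4 with fludarabine, 17.1 to 18.8 with ibrutinib and 36 to 39.4 with idelalisib, in EHEB 20.1 to 24.5, 53.3 to 63.8, 21.6 to 23.9 and 23.4 to 27.2, and in MEC1 with fludarabine 25.1 to 28.7. These sums moved with treatment, and their part in the results below was not tested. In bulk libraries of this kind fewer expressing cells and less RNA per cell cannot be told apart.

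Where a kinase inhibitor moved one of the 10 genes it mostly lowered it, whereas fludarabine raised most of them in MEC1. In JVM2 and EHEB the share of the 10 that passed the test with fludarabine was near that of all genes. Each gene was tested against DMSO within its line by edgeR's quasi-likelihood F-test over all genes, and a gene was called at a Benjamini-Hochberg adjusted p under 0.05. Over the 6 comparisons of an inhibitor with DMSO, 37 of 60 gene tests were called lower and 6 higher, and over the 3 comparisons of fludarabine 9 of 30 were called lower and 8 higher. Many other genes moved too. Over all genes and the same comparisons, 19.7% of the inhibitor tests were called lower and 18.5% higher, and 21.7% of the fludarabine tests lower and 21.2% higher. The comparisons of a line share its 3 DMSO libraries.

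In MEC1, 8 of the 10 genes were called with fludarabine, 7 higher and 1 lower, where 43.9% of 17516 tested genes were called. Their median log2 fold change was 0.92 against 0.06 over all genes. With ibrutinib 8 were called in the same line, 6 lower and 2 higher (47.6% of all genes), with a median of -0.80, and with idelalisib 8, 6 lower and 2 higher (55% of all genes), with a median of -0.84, the medians over all genes being 0.06 and 0.08. Scaling by library size alone shifts every log2 fold change of a comparison together, by 0.25 for fludarabine in MEC1, 0.20 in JVM2 and 0.11 in EHEB, by 0.10 for idelalisib in JVM2, and by -0.17 for idelalisib against ibrutinib in MEC1. The split of the MEC1 idelalisib calls then became 6 lower and 0 higher.

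JVM2 gave fewer calls. There 5 of the 10 were called with fludarabine, 4 lower and 1 higher (47.2% of 17508 genes, median -0.12), 3 with ibrutinib, all lower (29.4%, median -0.37), and 7 with idelalisib, all lower (44.2%, median -0.37). The medians over all genes lay between -0.0014 and 0.06. The numbers called with fludarabine and ibrutinib were near the share of all genes. Scaled by library size, the split was 4 lower and 2 higher with fludarabine and 6 lower and 2 higher with idelalisib. The ibrutinib count became 5 without ibrutinib library 3, and the idelalisib count 3 without DMSO library 2 and 4 without DMSO library 3. The share of all genes called in such refits, in any line, is not given here. These changed counts and splits are therefore not read as particular to the 10 genes.

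In EHEB 8 of the 10 genes were called with ibrutinib, all lower, against 19.7% of 17748 genes. The median of the 10 was -0.77 and that of all genes 0.01. With idelalisib 9 were called, 7 lower and 2 higher (33.3% of all genes), with a median of -0.92, which is the same with SPRY1 set at its bound (below), and with fludarabine 4, all lower (37.5%, median -0.08), near the share of all genes. With library size scaling the fludarabine split became 3 lower and 2 higher.

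**Figure D1:**
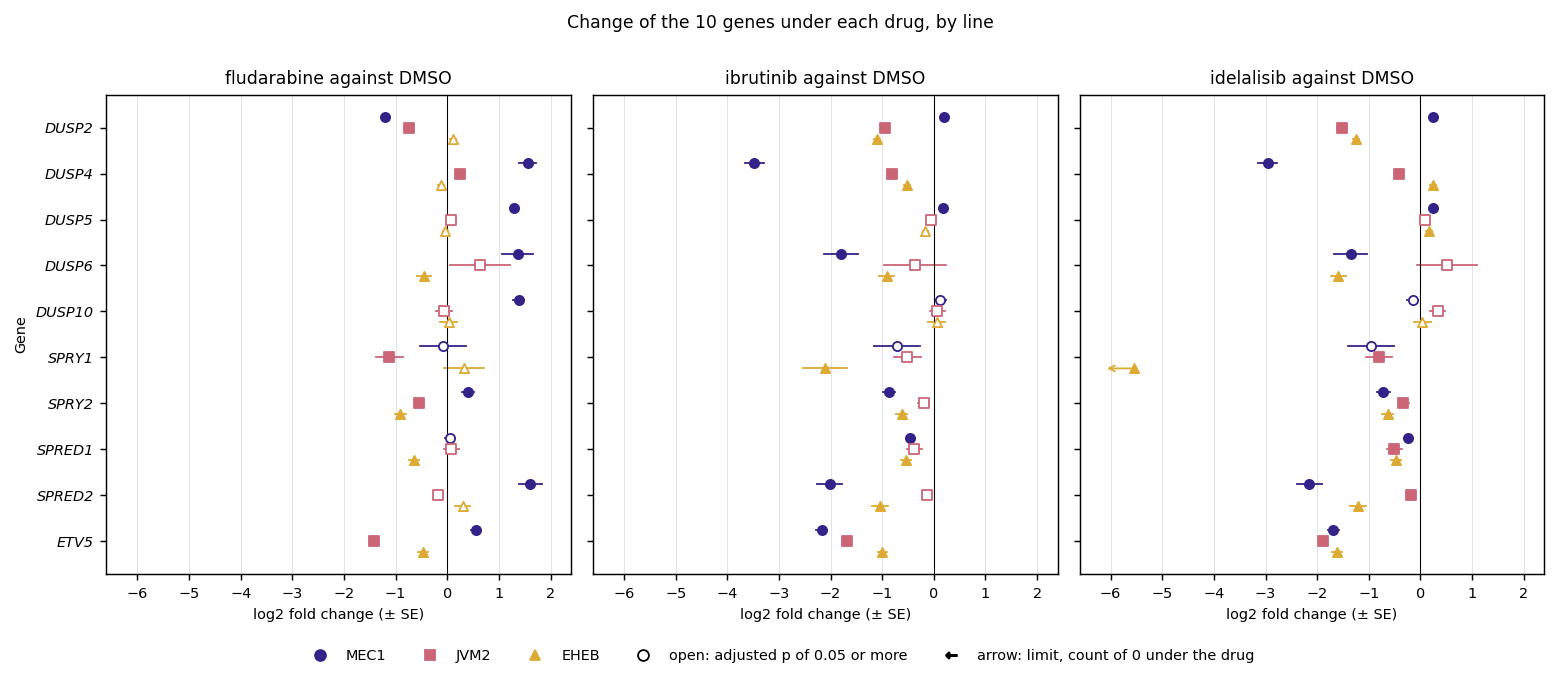
log2 fold change ± SE (horizontal axis) of each of the 10 genes (vertical axis) with fludarabine, ibrutinib and idelalisib against DMSO in MEC1 (circles), JVM2 (squares) and EHEB (triangles). Filled symbols passed the test, open ones did not, and the arrow marks SPRY1 in EHEB with idelalisib, drawn at its bound of -5.54. Most filled symbols of the inhibitor panels lie left of 0, while the MEC1 circles of the fludarabine panel lie mostly right of 0.

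With the vehicle alone, the levels of the genes differed between the lines. Per kilobase of exon, the most abundant of the 10 in MEC1 were DUSP2 at 50.3 ± 1.38 CPM per kb (SD, n = 3) and DUSP5 at 23.99 ± 0.937, and the least abundant was DUSP6 at 0.377 ± 0.0260. The order in MEC1 was DUSP2, DUSP5, ETV5, SPRY2, DUSP10, DUSP4, SPRED1, SPRY1, SPRED2 and DUSP6, in which ETV5 and SPRY2 overlapped within their SD. JVM2 had DUSP2 at 231.7 ± 2.49 CPM per kb and DUSP5 at 125 ± 2.01, followed by DUSP4, SPRY2, DUSP10, ETV5, SPRY1, SPRED2, SPRED1 and DUSP6 at 0.0601 ± 0.00736. There SPRY2 and DUSP10 overlapped within their SD, as did ETV5 and SPRY1. In EHEB the order was DUSP5 at 84.04 ± 2.95 CPM per kb, DUSP2 at 75.8 ± 1.800, DUSP4, DUSP10, SPRY2, ETV5, DUSP6, SPRED1, SPRED2 and SPRY1 at 0.323 ± 0.151, with ETV5 and DUSP6 overlapping. The phosphatases DUSP2 and DUSP5 thus led in all 3 lines, and the lowest place fell to DUSP6 in MEC1 and JVM2 and to SPRY1 in EHEB.

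Between lines, edgeR on the 9 DMSO libraries called 9 of the 10 genes for MEC1 against JVM2 (63.8% of 17394 genes), 8 for MEC1 against EHEB (67.4%) and all 10 for EHEB against JVM2 (59.6%). DUSP4 was the furthest apart between MEC1 and EHEB, at 19.9 ± 1.13 CPM in MEC1 and 491 ± 27.1 CPM in EHEB (24.6-fold, adjusted p = 6.53e-10). DUSP6 was furthest apart between EHEB and JVM2, at 11.8 ± 1.69 and 0.232 ± 0.0284 CPM (50.0-fold, adjusted p = 5.01e-08), and SPRY1 ran the other way, at 1.28 ± 0.597 CPM in EHEB and 21.7 ± 3.82 CPM in JVM2 (16.8-fold, adjusted p = 2.35e-05). SPRED2 was 7.65-fold, adjusted p = 4.99e-08, lower in MEC1 than in JVM2, whereas SPRED1 was higher in MEC1 (2.55-fold, adjusted p = 4.28e-06). ETV5 did not pass the test between MEC1 and JVM2 (log2 difference 0.16 ± 0.07, adjusted p = 0.0904, and 0.00745 with library size scaling), nor did SPRY2 (adjusted p = 0.983) and SPRED1 (adjusted p = 0.0615, and 0.0295 with DESeq2) between MEC1 and EHEB.

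**Figure D2:**
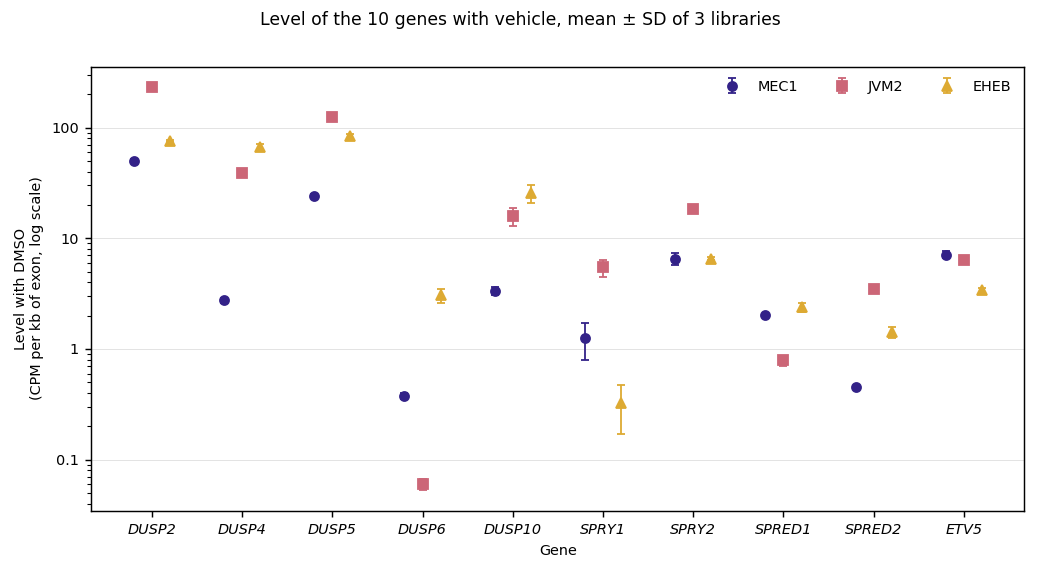
Level of each gene with DMSO in CPM per kilobase of exon (vertical axis, log scale) for the 10 genes (horizontal axis). Symbols are the mean of 3 libraries and bars the SD, with TMM scaling over the DMSO libraries of all lines. DUSP2 and DUSP5 stand highest in each line, and DUSP6 in JVM2 is the lowest point, at 0.0601.

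ETV5 (ENSG00000244405.8, chr3:186046314-186110318 on the minus strand, here and below by GENCODE 44 on GRCh38) is the one gene of the 10 that passed the test in all 9 comparisons with DMSO, 8 lower and 1 higher. In MEC1 its libraries held 44.1, 49.3 and 43.3 CPM with DMSO, 65.4, 66.3 and 69.9 CPM with fludarabine, 10.3, 8.69 and 11.3 CPM with ibrutinib and 12.9, 15.2 and 14.2 CPM with idelalisib. All 4 groups of MEC1 were apart from each other, with fludarabine highest and ibrutinib lowest. Against DMSO, ETV5 rose with fludarabine (log2 fold change 0.56 ± 0.10, adjusted p = 0.000822; ± gives the SE after a log2 value and the SD over the 3 libraries after a CPM value, here and below) and fell 4.51-fold with ibrutinib (-2.17 ± 0.10, adjusted p = 7.23e-08) and 3.23-fold with idelalisib (-1.69 ± 0.10, adjusted p = 2.01e-07).

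JVM2 libraries measured 36.1, 40.1 and 37.4 CPM with DMSO, 15.5, 13.8 and 12.9 CPM with fludarabine, 11.98, 11.9 and 11.5 CPM with ibrutinib and 10.7, 9.27 and 10.6 CPM with idelalisib. Every drug library lay below every DMSO library, and the order was DMSO, fludarabine, ibrutinib and idelalisib with no overlap between neighbours. Here fludarabine lowered ETV5 2.69-fold (-1.43 ± 0.09, adjusted p = 2.05e-07), ibrutinib 3.22-fold (-1.69 ± 0.09, adjusted p = 7.81e-07) and idelalisib 3.72-fold (-1.895 ± 0.09, adjusted p = 6.43e-08). In EHEB the values were 21.4, 20.1 and 19.5 CPM with DMSO, 15.2, 14.98 and 13.8 CPM with fludarabine, 9.89, 9.23 and 11.4 CPM with ibrutinib and 6.59, 6.42 and 6.93 CPM with idelalisib. The order of treatments was that of JVM2, again with no overlap, and the folds were smaller for fludarabine (-0.47 ± 0.09, adjusted p = 0.00199), 2.0-fold lower for ibrutinib (-0.997 ± 0.09, adjusted p = 4.23e-05) and 3.06-fold lower for idelalisib (-1.61 ± 0.10, adjusted p = 4.89e-07). ETV5 shares 164 exonic bases with DGKG on the same strand, and DGKG had at most 212 counts in a library. Its antisense gene ETV5-AS1 had at most 12.

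Of the nuclear phosphatases that ERK induces, DUSP4 (ENSG00000120875.9, chr8:29333064-29350684 on the minus strand), which acts on ERK and JNK, showed the largest called fold between a drug and DMSO within a line, among those of the 10 genes with counts in both groups. MEC1 libraries measured 22.1, 20.8 and 23.3 CPM with DMSO, 63.03, 60.1 and 71.9 CPM with fludarabine, 2.64, 1.38 and 1.89 CPM with ibrutinib and 2.79, 2.81 and 2.89 CPM with idelalisib. The 4 groups did not overlap, and the inhibitor libraries held 58 to 132 counts each. DUSP4 fell 11.1-fold with ibrutinib (-3.475 ± 0.18, adjusted p = 1.31e-07) and 7.78-fold with idelalisib (-2.96 ± 0.18, adjusted p = 1.87e-07), and it rose 2.95-fold with fludarabine (1.56 ± 0.16, adjusted p = 1.72e-05). In JVM2 the libraries gave 291, 291 and 282.2 CPM with DMSO, 347, 343 and 338 CPM with fludarabine, 170.03, 164 and 160.1 CPM with ibrutinib and 215, 219.5 and 216 CPM with idelalisib. The order of the groups was the same as in MEC1 with smaller steps, namely 0.25 ± 0.04, adjusted p = 0.000167 for fludarabine, -0.81 ± 0.04, adjusted p = 3.37e-07 for ibrutinib and -0.41 ± 0.04, adjusted p = 5.57e-06 for idelalisib. The fludarabine call did not hold in a fit of all 36 libraries (adjusted p = 0.0627).

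EHEB libraries held 536, 488 and 491 CPM with DMSO, 485, 456 and 457 CPM with fludarabine, 345, 334 and 376 CPM with ibrutinib and 593, 589 and 611 CPM with idelalisib. The inhibitors went in opposite directions there, down with ibrutinib (-0.52 ± 0.06, adjusted p = 9.15e-05) and up with idelalisib (0.24 ± 0.06, adjusted p = 0.00616, and adjusted p = 0.065 in the fit of all 36 libraries). Fludarabine gave -0.12 ± 0.06, adjusted p = 0.126, short of the threshold.

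DUSP2 (ENSG00000158050.5, chr2:96143169-96145440 on the minus strand), a nuclear phosphatase first described in activated lymphocytes, fell with the inhibitors in JVM2 and EHEB and rose slightly in MEC1. In JVM2 the libraries measured 464, 457 and 456 CPM with DMSO, 275, 280.01 and 269.5 CPM with fludarabine, 244, 230.02 and 241 CPM with ibrutinib and 167, 162 and 151 CPM with idelalisib. No library of one group reached the range of another, from DMSO down to idelalisib. The folds were 1.67-fold lower with fludarabine (-0.74 ± 0.04, adjusted p = 1.86e-07), 1.93-fold lower with ibrutinib (-0.95 ± 0.04, adjusted p = 4.1e-07) and 2.87-fold lower with idelalisib (-1.52 ± 0.04, adjusted p = 5.53e-09). For EHEB the values were 149, 148 and 154 CPM with DMSO, 170.2, 159 and 159 CPM with fludarabine, 68.3, 67.2 and 74.02 CPM with ibrutinib and 66.8, 63.9 and 60.3 CPM with idelalisib. Ibrutinib (-1.11 ± 0.06, adjusted p = 1.17e-06) and idelalisib (-1.24 ± 0.06, adjusted p = 1e-07) lowered DUSP2 there, and fludarabine did not pass the test (0.11 ± 0.06, adjusted p = 0.15), though it did with library size scaling (adjusted p = 0.00338).

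MEC1 libraries held 106, 105 and 111 CPM with DMSO, 46.9, 47.2 and 46.4 CPM with fludarabine, 131, 118 and 118 CPM with ibrutinib and 127, 125 and 127 CPM with idelalisib. Fludarabine lowered DUSP2 in MEC1 2.29-fold (-1.197 ± 0.06, adjusted p = 1.06e-07), the only one of the 10 genes called lower in that comparison. The inhibitor libraries of MEC1 all lay above the DMSO libraries, by 0.19 ± 0.06, adjusted p = 0.0155 with ibrutinib and by 0.24 ± 0.06, adjusted p = 0.00363 with idelalisib. The ibrutinib call was lost without DMSO library 1 (adjusted p = 0.0538), DMSO library 2 (0.0566) or ibrutinib library 1 (0.114) and with no filter on low counts (0.116), and the idelalisib call with library size scaling (0.0755).

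DUSP5 (ENSG00000138166.6, chr10:110497907-110511533 on the plus strand), a nuclear phosphatase that acts on ERK alone, rose with fludarabine in MEC1 and moved little elsewhere. Its MEC1 libraries held 64.7, 66.9 and 70.3 CPM with DMSO, 167, 159 and 167 CPM with fludarabine, 80.5, 71.8 and 76.9 CPM with ibrutinib and 74.8, 82.9 and 80.5 CPM with idelalisib. The fludarabine libraries were all above the rest, 2.44-fold above DMSO (1.29 ± 0.06, adjusted p = 1.43e-07), and the inhibitor libraries stood slightly above DMSO (0.18 ± 0.06, adjusted p = 0.0326 with ibrutinib and 0.24 ± 0.06, adjusted p = 0.00758 with idelalisib). The ibrutinib call was lost with no filter on low counts (adjusted p = 0.164), in the fit of all 36 libraries (0.0508) and without DMSO library 1 or 2, ibrutinib library 1 or 3 or idelalisib library 3 (adjusted p = 0.12, 0.0817, 0.188, 0.0803 and 0.0588), and the idelalisib call without idelalisib library 3 (0.051) or with library size scaling (0.126). In JVM2 DUSP5 was at 303 to 354 CPM over the 12 libraries and passed none of the 3 tests. With library size scaling it passed there with fludarabine (0.28, adjusted p = 0.000122) and idelalisib (0.19, adjusted p = 0.00194), and with the stricter filter likewise (adjusted p = 0.0143 and 0.0227). EHEB libraries ranged from 189 to 253 CPM, and DUSP5 was called there with idelalisib only (0.16 ± 0.05, adjusted p = 0.0328). That call was lost without DMSO library 1 or 3 or idelalisib library 1 or 2 (adjusted p = 0.0521, 0.087, 0.0609 and 0.113), and with no filter on low counts (0.077), while with ibrutinib DUSP5 stood at -0.16 ± 0.05, adjusted p = 0.0519 and passed without ibrutinib library 3 (0.0149), with DESeq2 (0.0176), limma-voom (0.0424) and the stricter filter (0.0391), and in the fit of all 36 libraries (0.0491).

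DUSP6 (ENSG00000139318.8, chr12:89347235-89352501 on the minus strand), the cytoplasmic phosphatase with a preference for ERK, fell with both inhibitors in MEC1 and EHEB. EHEB, where it was most abundant, had 12.1, 13.99 and 10.4 CPM with DMSO, 8.99, 9.39 and 8.42 CPM with fludarabine, 6.22, 7.46 and 5.71 CPM with ibrutinib and 3.56, 4.39 and 4.099 CPM with idelalisib. The groups followed each other from DMSO to idelalisib without overlap. DUSP6 fell 1.88-fold with ibrutinib (-0.91 ± 0.14, adjusted p = 0.00103) and 3.02-fold with idelalisib (-1.596 ± 0.14, adjusted p = 9.47e-06), and it was lower with fludarabine (-0.45 ± 0.14, adjusted p = 0.0255). The fludarabine call was lost without DMSO library 1 or 2 or fludarabine library 1 or 3 (adjusted p = 0.0525, 0.102, 0.0559 and 0.078), with library size scaling (0.0964) and in the fit of all 36 libraries (0.227).

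In MEC1 the level was low, at 1.703, 1.63 and 1.49 CPM with DMSO, 3.74, 4.21 and 4.501 CPM with fludarabine, 0.4599, 0.619 and 0.305 CPM with ibrutinib and 0.8597, 0.686 and 0.355 CPM with idelalisib, which is 14 to 164 counts per library. Fludarabine raised it 2.57-fold (1.36 ± 0.30, adjusted p = 0.00332), and it fell 3.49-fold with ibrutinib (-1.801 ± 0.32, adjusted p = 0.000789) and 2.55-fold with idelalisib (-1.35 ± 0.32, adjusted p = 0.00381). JVM2 libraries held only 3 to 26 counts of DUSP6, and no difference from DMSO was detectable at this depth (adjusted p = 0.394, 0.718 and 0.506). A lncRNA on the opposite strand, ENSG00000274021, shares 1105 exonic bases with DUSP6 and has no row in the counts. Whether the counting used strand is not given in the sources used here, so reads of the pair cannot be told apart.

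DUSP10 (ENSG00000143507.18, chr1:221701424-221742089 on the minus strand), a phosphatase of JNK and p38 rather than of ERK, passed the test in 1 of the 9 comparisons. In MEC1 the libraries gave 11.1, 9.45 and 10.7 CPM with DMSO, 27.7, 28.5 and 25.2 CPM with fludarabine, 12.5, 9.85 and 11.7 CPM with ibrutinib and 9.397, 10.1 and 8.597 CPM with idelalisib. The fludarabine libraries were 2.61-fold above DMSO (1.38 ± 0.11, adjusted p = 2.98e-06), and the other 3 groups overlapped. DUSP10 passed with neither inhibitor in any line, with log2 fold changes from -0.15 to 0.33. In JVM2 the 12 libraries ranged from 39.4 to 64.7 CPM and in EHEB from 60.7 to 90.5 CPM, with a wide spread inside groups (74.6 ± 13.2 CPM for DMSO in EHEB). The JVM2 idelalisib difference (0.33 ± 0.15, adjusted p = 0.0921) passed without DMSO library 1 (0.0196) and with library size scaling (0.0401).

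SPRY1 (ENSG00000164056.11, chr4:123396795-123403760 on the plus strand), a Sprouty inhibitor of RAS to ERK signalling, had a count of 0 in all 3 idelalisib libraries of EHEB. The EHEB libraries measured 0.767, 1.21 and 1.98 CPM with DMSO, 1.46, 1.64 and 1.85 CPM with fludarabine, 0.292, 0.427 and 0.206 CPM with ibrutinib and 0, 0 and 0 CPM with idelalisib, which is 31 to 89 counts with DMSO and 9 to 14 with ibrutinib. A floor of 3 counts over the idelalisib group was taken. It covers counting error only and treats the estimated counts as read counts. By group means, SPRY1 was then at least 46.4-fold higher with DMSO and at least 10.9-fold higher with ibrutinib than with idelalisib (adjusted p = 5.63e-05 and 0.00196). Ibrutinib lowered it 4.3-fold (-2.11 ± 0.43, adjusted p = 0.00897), and fludarabine did not pass the test (0.33 ± 0.39, adjusted p = 0.567).

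In JVM2, where SPRY1 was highest, the values were 17.9, 25.5 and 23.3 CPM with DMSO, 12.4, 8.44 and 9.88 CPM with fludarabine, 11.9, 13.6 and 21.3 CPM with ibrutinib and 15.7, 13.5 and 9.14 CPM with idelalisib. The fludarabine and idelalisib libraries of JVM2 all lay below the DMSO libraries, and ibrutinib overlapped them. SPRY1 fell 2.17-fold with fludarabine (-1.12 ± 0.26, adjusted p = 0.00439) and 1.74-fold with idelalisib (-0.80 ± 0.26, adjusted p = 0.0264). The idelalisib call was lost without DMSO library 2 or 3 or idelalisib library 2 or 3 (adjusted p = 0.0864, 0.0672, 0.0565 and 0.101) and in the fit of all 36 libraries (0.0906), and the ibrutinib difference (-0.51 ± 0.26, adjusted p = 0.166) passed without ibrutinib library 3 (0.0444). MEC1 libraries held 7.103, 6.105 and 3.297 CPM with DMSO, 8.67, 4.698 and 2.22 CPM with fludarabine, 2.54, 3.76 and 3.76 CPM with ibrutinib and 2.25, 2.29 and 3.91 CPM with idelalisib. All 4 groups of MEC1 overlapped and none of the 3 tests passed. The idelalisib difference there (-0.97 ± 0.45, adjusted p = 0.0866) passed without DMSO library 3 or fludarabine library 1 or 3 (0.0451, 0.0458 and 0.038), in a fit of the 6 libraries alone (0.0447) and in the fit of all 36 (0.0284).

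SPRY2 (ENSG00000136158.12, chr13:80335976-80341126 on the minus strand), the second Sprouty gene, was called lower in 5 of the 6 inhibitor comparisons. In EHEB the libraries held 22.3, 21.1 and 21.5 CPM with DMSO, 13.7, 10.6 and 10.3 CPM with fludarabine, 14.3, 13.8 and 14.1 CPM with ibrutinib and 14.9, 12.97 and 13.9 CPM with idelalisib. Every drug library of EHEB lay below every DMSO library, and the idelalisib libraries overlapped those of both other drugs, while every fludarabine library was below every ibrutinib library. The log2 fold changes were -0.91 ± 0.11, adjusted p = 5.5e-05 for fludarabine, -0.62 ± 0.11, adjusted p = 0.00221 for ibrutinib and -0.64 ± 0.11, adjusted p = 0.000894 for idelalisib. MEC1 libraries gave 21.8, 21.2 and 26.6 CPM with DMSO, 32.7, 31.4 and 27.8 CPM with fludarabine, 14.1, 10.9 and 13.03 CPM with ibrutinib and 13.5, 15.2 and 13.6 CPM with idelalisib. The fludarabine libraries were all above DMSO and the inhibitor libraries all below it. SPRY2 fell 1.83-fold with ibrutinib (-0.87 ± 0.12, adjusted p = 0.000124) and 1.65-fold with idelalisib (-0.72 ± 0.12, adjusted p = 0.000372) and rose with fludarabine (0.40 ± 0.12, adjusted p = 0.0176). The rise was no longer called without DMSO library 1 or 2 or fludarabine library 1 or 2 (adjusted p = 0.0688, 0.0716, 0.0667 and 0.0538).

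JVM2 values were 56.7, 63.1 and 63.1 CPM with DMSO, 44.3, 45.3 and 35.8 CPM with fludarabine, 58.7, 51.9 and 48.8 CPM with ibrutinib and 50.3, 50.3 and 45.05 CPM with idelalisib. Ibrutinib alone overlapped DMSO. Fludarabine lowered SPRY2 in this line too (-0.54 ± 0.10, adjusted p = 0.00106), as did idelalisib (-0.33 ± 0.10, adjusted p = 0.0207), while ibrutinib did not pass (-0.20 ± 0.10, adjusted p = 0.172). The idelalisib call was lost without DMSO library 2 or 3 or idelalisib library 3 (adjusted p = 0.0619, 0.061 and 0.0855).

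SPRED2 (ENSG00000198369.10, chr2:65310851-65432637 on the minus strand), which holds RAS and RAF in check at the membrane, followed the direction of DUSP4 and DUSP6 in MEC1. The MEC1 libraries measured 2.797, 2.71 and 2.79 CPM with DMSO, 8.67, 8.88 and 7.81 CPM with fludarabine, 0.6199, 0.643 and 0.783 CPM with ibrutinib and 0.385, 0.899 and 0.558 CPM with idelalisib, with 13 to 38 counts under the inhibitors. Fludarabine libraries were all above DMSO and inhibitor libraries all below it. SPRED2 rose 3.06-fold with fludarabine (1.61 ± 0.22, adjusted p = 0.000151) and fell 4.04-fold with ibrutinib (-2.02 ± 0.24, adjusted p = 4.29e-05) and 4.44-fold with idelalisib (-2.15 ± 0.25, adjusted p = 2.08e-05). In EHEB the libraries held 8.21, 8.799 and 7.05 CPM with DMSO, 10.7, 10.05 and 8.87 CPM with fludarabine, 4.13, 3.504 and 4.05 CPM with ibrutinib and 3.77, 3.89 and 2.73 CPM with idelalisib. It fell 2.06-fold with ibrutinib (-1.04 ± 0.15, adjusted p = 0.000813) and 2.31-fold with idelalisib (-1.21 ± 0.15, adjusted p = 0.000129), and fludarabine gave 0.30 ± 0.15, adjusted p = 0.144, which passed with library size scaling (0.047).

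In JVM2, where SPRED2 was most abundant, the 12 libraries lay between 16.6 and 20.6 CPM. Idelalisib gave the single call (-0.19 ± 0.07, adjusted p = 0.0424), which was lost without any one of 10 of the 12 libraries, all but DMSO library 1 and idelalisib library 3 (adjusted p from 0.0561 to 0.16) and under 5 of the other settings. The fludarabine difference (-0.17 ± 0.07, adjusted p = 0.0551) passed without DMSO library 1 (0.0253) or idelalisib library 3 (0.0481) and with limma-voom (0.046).

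SPRED1 (ENSG00000166068.13, chr15:38252836-38357249 on the plus strand), the related gene that is lost in Legius syndrome, had small changes, all of those called being lower. In EHEB the libraries held 20.9, 18.01 and 17.99 CPM with DMSO, 11.9, 12.3 and 12.05 CPM with fludarabine, 13.9, 13.04 and 12.3 CPM with ibrutinib and 14.9, 13.5 and 12.7 CPM with idelalisib. All drug libraries were below all DMSO libraries, with log2 fold changes of -0.65 ± 0.09, adjusted p = 0.000213 with fludarabine, -0.54 ± 0.09, adjusted p = 0.00215 with ibrutinib and -0.47 ± 0.09, adjusted p = 0.00239 with idelalisib. MEC1 libraries gave 17.3, 17.4 and 17.02 CPM with DMSO, 16.9, 17.4 and 19.00 CPM with fludarabine, 11.9, 14.1 and 11.7 CPM with ibrutinib and 14.6, 15.02 and 14.3 CPM with idelalisib. Fludarabine overlapped DMSO, and both inhibitors lay below it. Ibrutinib lowered SPRED1 (-0.45 ± 0.09, adjusted p = 0.00129), and idelalisib did so to a smaller extent (-0.24 ± 0.09, adjusted p = 0.0387). The idelalisib call was lost without any one of the 6 libraries compared (adjusted p from 0.0539 to 0.0846) and with the stricter filter on low counts (0.137). The fludarabine difference in MEC1 (0.04 ± 0.09, adjusted p = 0.718) passed with library size scaling alone (0.0253). JVM2 had the lowest level, between 3.93 and 6.94 CPM, and idelalisib gave the one call there (-0.51 ± 0.14, adjusted p = 0.0137), lost without DMSO library 2 or idelalisib library 1 (adjusted p = 0.0549 and 0.0575). Ibrutinib in JVM2 (-0.38 ± 0.14, adjusted p = 0.0708) passed without ibrutinib library 3 (0.02) and in the fit of all 36 libraries (0.0126).

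Idelalisib and ibrutinib libraries belong to the same run of numbers, so they could be compared without the step to DMSO. In EHEB 5 of the 10 genes differed between the inhibitors (15.9% of all genes called), 2 higher and 3 lower with idelalisib. DUSP4 was 1.7-fold higher with idelalisib (0.77 ± 0.06, adjusted p = 1.06e-05) and DUSP5 1.25-fold higher (0.33 ± 0.05, adjusted p = 0.0017), whereas DUSP6 (-0.68 ± 0.14, adjusted p = 0.00773) and ETV5 (-0.62 ± 0.09, adjusted p = 0.00128) were lower, as was SPRY1 with its counts of 0. DUSP4 and DUSP5 thus went apart from DUSP6 and ETV5 between the inhibitors in this line. DUSP2, also a nuclear phosphatase, did not pass the test there (-0.13 ± 0.06, adjusted p = 0.154). The DUSP6 call was lost in the fit of all 36 libraries (adjusted p = 0.125).

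JVM2 gave 2 calls (18.7% of all genes), DUSP2 lower with idelalisib (-0.58 ± 0.04, adjusted p = 9.1e-06) and DUSP4 higher (0.40 ± 0.04, adjusted p = 3e-05). DUSP5 stood at 0.14 ± 0.04, adjusted p = 0.0511 and passed without fludarabine library 3 (0.0401) or ibrutinib library 1 (0.0326) and also with library size scaling, DESeq2, limma-voom and the stricter filter (0.0143, 0.0178, 0.0457 and 0.0116), which made the split 2 higher and 1 lower. In MEC1 the 1 call (15.4% of all genes) was ETV5, higher with idelalisib (0.48 ± 0.10, adjusted p = 0.00961), the direction opposite to EHEB, a difference between lines that was not tested. That call was lost in a fit of the 6 libraries alone (0.0599) and with library size scaling (0.0633), under which DUSP10 was called lower instead. DUSP4 in MEC1 was at 0.51 ± 0.18, adjusted p = 0.0859 and passed without ibrutinib library 1 (0.0167), and without ibrutinib library 2 DUSP10 and SPRED1 did (0.0434 and 0.0301), which brought the count to 2 and 3. DUSP4 also passed there with DESeq2 (0.0285) and in the fit of all 36 libraries (0.00678). Its log2 fold change was above 0 in all 3 lines. The counts in JVM2 and MEC1 were near the share of all genes.

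**Figure D3:**
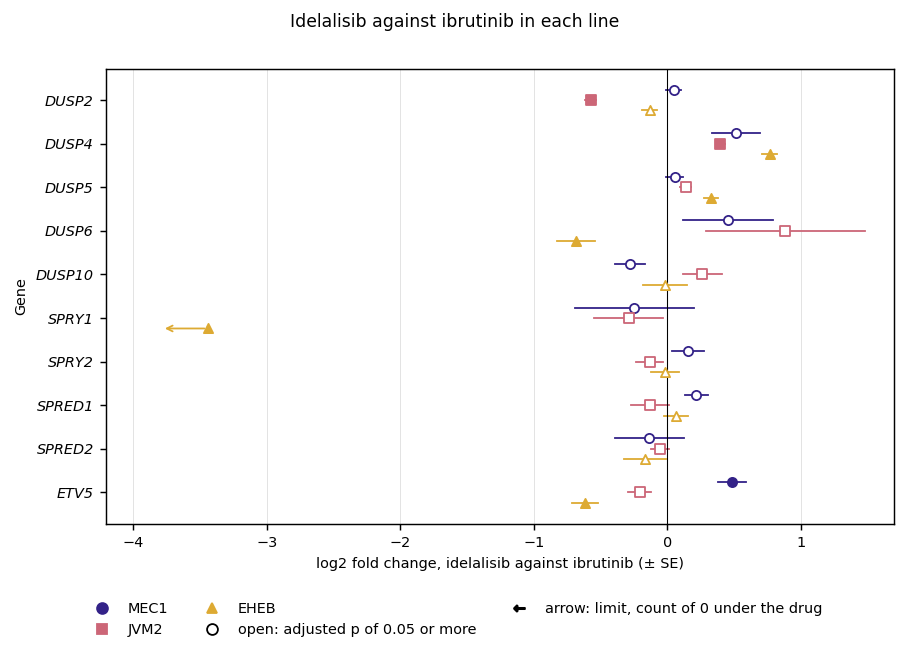
log2 fold change ± SE of idelalisib against ibrutinib (horizontal axis) for the 10 genes (vertical axis) in MEC1 (circles), JVM2 (squares) and EHEB (triangles). Filled symbols passed the test, and the arrow marks SPRY1 in EHEB at its bound of -3.44. DUSP4 lies right of 0 in each line (0.51, 0.40 and 0.77), and ETV5 lies right of 0 in MEC1 and left of it in EHEB.

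Whether a drug acted on a gene to a different extent in the 3 lines was tested as an interaction of line and treatment over 18 libraries per drug. For fludarabine 9 of the 10 genes differed between lines (39.1% of 19286 genes), all but SPRY1 (adjusted p = 0.135). DUSP5 rose in MEC1 and stayed within 0.08 of 0 on the log2 scale in the other lines (adjusted p = 3.7e-10), DUSP10 did likewise (adjusted p = 2.32e-05), and ETV5 rose in MEC1 and fell in JVM2 and EHEB (adjusted p = 5e-09). SPRY2 had the same signs as ETV5 (0.40, -0.54 and -0.91 in MEC1, JVM2 and EHEB, adjusted p = 2.78e-05).

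For ibrutinib 7 genes differed between lines (33.6% of 18851 genes). The range was widest for DUSP4, from -3.475 in MEC1 to -0.52 in EHEB (adjusted p = 7.73e-08), and SPRED2 ran from -2.02 in MEC1 to -0.13 in JVM2 (adjusted p = 2.05e-06). DUSP10, SPRED1 and SPRY1 did not pass (adjusted p = 0.999, 0.75 and 0.0697), and the calls of DUSP5 (0.0182) and DUSP6 (0.0283) were each lost with a library left out. For idelalisib 6 genes differed (45.7% of 19081 genes), among them DUSP2, at 0.24 in MEC1 and -1.52 and -1.24 in JVM2 and EHEB (adjusted p = 1.51e-10), and DUSP4, at -2.96 in MEC1 and 0.24 in EHEB (adjusted p = 9.46e-13). ETV5 had log2 fold changes of -1.69, -1.895 and -1.61 with idelalisib in MEC1, JVM2 and EHEB, and a difference between lines was not detected (adjusted p = 0.195). The idelalisib calls of DUSP6 (0.012) and SPRY2 (0.0194) were lost with a library left out and under an alternative setting.

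Other phosphatases of MAP kinases were counted in the same way, for a list of 9 genes of which 8 or 9 were tested in each line. Over the 6 inhibitor comparisons 24 of 50 gene tests were called lower and 4 higher, and over the 3 fludarabine comparisons 6 of 25 were lower and 7 higher, beside the pooled shares of all genes of 19.7% and 18.5% for the inhibitors and 21.7% and 21.2% for fludarabine. In MEC1 the calls were 6 lower and 1 higher with ibrutinib, 6 lower with idelalisib, and 2 in each direction with fludarabine, of 9 tested (47.6%, 55% and 43.9% of all genes called in either direction). In JVM2 they were 4 and 5 lower with ibrutinib and idelalisib, and 4 lower and 1 higher with fludarabine, of 8 tested (29.4%, 44.2% and 47.2% of all genes). EHEB had 2 lower and 1 higher with ibrutinib, 1 lower and 2 higher with idelalisib, and 4 higher with fludarabine, of 8 tested (19.7%, 33.3% and 37.5% of all genes). The MEC1 fludarabine count and the EHEB idelalisib count were near these shares. DUSP1, an immediate early phosphatase of p38, JNK and ERK, fell with ibrutinib from 10.7 ± 0.51 to 3.19 ± 0.39 CPM in MEC1 (-1.74 ± 0.13, adjusted p = 1.2e-06) and from 13.8 ± 1.82 to 5.45 ± 0.34 CPM in JVM2 (-1.34 ± 0.11, adjusted p = 1.2e-05), and with idelalisib in the same lines (-2.04 and -1.35, adjusted p = 2.57e-07 and 2.89e-06). In EHEB it fell with ibrutinib (-0.41 ± 0.12, adjusted p = 0.0427). With fludarabine it rose in EHEB (0.70 ± 0.12, adjusted p = 0.00101) and fell in MEC1 (-0.36 ± 0.12, adjusted p = 0.0316) and JVM2 (-0.29 ± 0.10, adjusted p = 0.04). DUSP8, a JNK phosphatase, was low with DMSO (2.43, 9.77 and 1.03 CPM in MEC1, JVM2 and EHEB) and fell with ibrutinib in all 3 lines (-3.73, -3.19 and -2.999, adjusted p = 0.00173, 4.14e-06 and 0.000252). It also fell with idelalisib in MEC1 and JVM2 (-3.105 and -2.39, adjusted p = 0.0036 and 4.91e-06). With fludarabine it rose in EHEB (3.08 ± 0.29, adjusted p = 8.79e-06) and fell in JVM2 (-0.79 ± 0.19, adjusted p = 0.00563). DUSP16, another JNK phosphatase, fell with all 3 drugs in MEC1 and JVM2 (log2 fold changes from -1.19 to -0.28) and rose in EHEB with ibrutinib (0.18 ± 0.05, adjusted p = 0.0327) and idelalisib (0.15 ± 0.05, adjusted p = 0.05, just under the threshold before rounding).

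The 5 remaining Sprouty, SPRED and PEA3 genes (SPRY3, SPRY4, SPRED3, ETV1 and ETV4) gave 11 of 26 inhibitor tests lower and 2 higher, and 3 in each direction of 13 fludarabine tests. The shares of all genes were 19.7% lower and 18.5% higher for the inhibitors and 21.7% and 21.2% for fludarabine, to which the fludarabine counts were near. SPRY4, a Sprouty gene of the same feedback, fell with ibrutinib (-2.46 ± 0.32, adjusted p = 8.45e-05) and idelalisib (-1.97 ± 0.32, adjusted p = 0.000274) in MEC1 and with both in JVM2 (-0.90 and -1.72, adjusted p = 0.0208 and 0.000313), and in EHEB with idelalisib (-0.33 ± 0.11, adjusted p = 0.0389). With fludarabine it rose in MEC1 (0.92 ± 0.29, adjusted p = 0.023) and fell in JVM2 (-0.85 ± 0.25, adjusted p = 0.0166). ETV4, the paralogue of ETV5, measured 54.5 ± 2.48 CPM with DMSO and 18.6 ± 0.947 CPM with ibrutinib in MEC1 (-1.55 ± 0.07, adjusted p = 6.45e-08) and fell in 5 of the 6 inhibitor comparisons. With fludarabine ETV4 fell in JVM2 (-1.67 ± 0.18, adjusted p = 1.72e-05) and did not pass in MEC1 (-0.16 ± 0.07, adjusted p = 0.0989), where ETV5 rose. SPRY3 rose with fludarabine in MEC1 (1.702, adjusted p = 0.0041) and with all 3 drugs in JVM2 (1.79, 1.21 and 1.42, adjusted p = 0.00222, 0.0323 and 0.00954) from about 0.5 CPM with DMSO.

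A list of 12 further transcripts of ERK output, mostly immediate early genes, had 30 of 68 inhibitor tests lower and 4 higher (19.7% and 18.5% of all genes). In MEC1 5 and 6 of 10 were lower with ibrutinib and idelalisib, near the shares of all genes called (47.6% and 55%). JVM2 had 5 lower and 1 higher, and 7 and 1, of 12 (29.4% and 44.2% of all genes). EHEB had 3 lower and 1 higher, and 4 and 1, of 12 (19.7% and 33.3%). With fludarabine 19 of 34 were higher and 2 lower (21.2% and 21.7% of all genes). By line these were 5 higher of 10 tested in MEC1, 8 higher and 2 lower of 12 in JVM2 and 6 higher of 12 in EHEB, where 43.9%, 47.2% and 37.5% of all genes were called in either direction. The number called in MEC1 was near that share. In JVM2 and EHEB most fludarabine calls of this list were higher, with a median log2 fold change of 1.10 in JVM2 and 0.64 in EHEB. Of the 10 feedback genes, 4 were called lower and 1 higher in JVM2, and 4 lower in EHEB. Those numbers were near the share of all genes, and a difference between the 2 sets of genes was not tested. EGR3, an early growth response factor, fell with both inhibitors in all 3 lines, in EHEB from 18.4 ± 1.04 CPM to 9.92 ± 0.62 with ibrutinib (-0.89 ± 0.08, adjusted p = 3.67e-05) and 5.16 ± 0.42 with idelalisib (-1.83 ± 0.08, adjusted p = 9.48e-08), and it rose with fludarabine in JVM2 (1.29 ± 0.26, adjusted p = 0.00173) and EHEB (1.45 ± 0.08, adjusted p = 1.79e-07). EGR1 of the same family fell in all 6 inhibitor comparisons, with log2 fold changes of -3.89, -1.902 and -1.17 for ibrutinib in MEC1, JVM2 and EHEB (adjusted p = 0.000333, 7.29e-06 and 4.54e-05), and it rose with fludarabine in JVM2 (0.37 ± 0.13, adjusted p = 0.0409). FOSL1, an AP-1 subunit, rose with fludarabine in all 3 lines (1.11, 1.499 and 1.69, adjusted p = 0.0223, 3.75e-05 and 0.000648) and fell with both inhibitors in JVM2 and with idelalisib in EHEB. MYC passed none of the 9 tests.

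ETV5 had 9 calls against DMSO, and DUSP2, DUSP4 and SPRY2 had 8 each, of which DUSP4 had the highest mean CPM over the 36 libraries. The genes whose pattern was most like that of ETV5 and of DUSP4 were found by Pearson's r of log2 CPM over the 36 libraries, each line centred on its own mean, among 11919 genes tested in every line. For ETV5 the closest genes were TRAC (r = 0.932), a T-cell receptor constant gene, LRFN1 (0.927) and RNF26 (0.913), and for DUSP4 they were CPD (0.97), CPEB4 (0.948) and AFF4 (0.943). Among the 10 genes themselves on the same scale, DUSP4 and SPRED2 had an r of 0.867, DUSP6 and SPRED2 0.833 and ETV5 and SPRED2 0.824, while DUSP2 was at -0.419 with DUSP4, -0.596 with DUSP10 and 0.122 with ETV5. These values describe libraries that share treatments and DMSO groups and are not independent.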

How the data were processed

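RNA of 3 B-cell lines was sequenced in 36 libraries. Per the labels and the methods of the study, the authors trimmed reads with Trimmomatic, aligned them to GRCh38 with HISAT2 2.1 and derived estimated counts per gene with StringTie 1.3.4. The deposited values are these expected counts as whole numbers, one column per library, with no normalisation. The sources used here give neither the Ensembl release nor the use of strand. Of 37549 symbols, 6020 held only zeros, and a row with a blank symbol (0.00384% of counts) was dropped. Total counts were between 26590705 and 53538925 per library, which sets the counting error only.

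Each line (12 libraries) was fitted alone with edgeR 4.0.16 (R 4.3.3), TMM scaling, filterByExpr (minimum count 10) and the quasi-likelihood F-test, with Benjamini-Hochberg adjustment over all tested genes and calls at 0.05. DMSO groups were compared over 9 libraries and drug effects between lines by a 2-df F-test over 18. The SE is the log2 fold change divided by the root of F. Alternatives were DESeq2 1.42.0, limma-voom 3.58.1, library size scaling, no filter, a stricter filter (mean CPM of at least 1), the 2 groups alone, all 36 libraries jointly, and leaving out each library. CPM per kb used merged GENCODE 44 exons. Scripts were tested on simulated data. Besides the 10 genes, the text names, from each of 5 lists (other MAP kinase phosphatases, other Sprouty, SPRED and PEA3 genes, other transcripts of ERK output, the RAS to ERK cascade, JNK and p38 kinases), up to 3 genes with the most calls over the 9 comparisons with DMSO, and for 2 of the 10 genes, taken by most calls and then by highest mean CPM, the 3 genes closest in pattern. MYC was named after its values were seen. A gene of the RAS to ERK cascade list and one of the B-cell list are not reported here. The genes and lists were chosen with earlier results of these data known.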

Additional observations from a re-analysis of the deposited data

Results flagged for a closer look

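The effect of each drug was compared between the 3 lines, and each gene named here differed by the F-test of the interaction. The size given is the gap between the highest and the lowest of the 3 log2 fold changes. Each line had its own exposure time, and the 2 cannot be told apart in these values.

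With fludarabine the gap was 1.309 for DUSP2, 1.675 for DUSP4, 1.325 for DUSP5, 1.81 for DUSP6, 1.446 for DUSP10, 1.308 for SPRY2, 0.7282 for SPRED1, 1.782 for SPRED2 and 1.988 for ETV5. These 9 calls held under every setting tried, with adjusted p of at most 0.00198.

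With ibrutinib the gap was 1.297 for DUSP2, 2.952 for DUSP4, 0.346 for DUSP5, 1.435 for DUSP6, 0.6735 for SPRY2, 1.887 for SPRED2 and 1.177 for ETV5. DUSP5 reached an adjusted p of 0.0575 with a library left out, and DUSP6 reached 0.118 under an alternative setting and 0.0644 with a library left out.

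With idelalisib the gap was 1.755 for DUSP2, 3.203 for DUSP4, 2.115 for DUSP6, 7.839 for SPRY1, 0.3887 for SPRY2 and 1.964 for SPRED2. The SPRY1 gap rests on a fitted value against counts of 0 in EHEB and is not a measured size. DUSP6 reached an adjusted p of 0.0977 under an alternative and 0.0718 with a library left out, and SPRY2 0.0624 and 0.0681.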

How the results depend on the processing

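Of the 90 gene tests against DMSO, 60 passed the threshold, and 46 of these passed under every setting in which the gene was tested. Over all genes, 19.7% of the inhibitor tests were called lower and 18.5% higher, and 21.7% and 21.2% of the fludarabine tests. The share of calls kept under every setting is not given over all genes, so the 46 cannot be set against it. No called direction was reversed under any setting. Over all gene tests, the settings that kept every library left 953 values on the same side of the threshold, brought 26 over it, took 20 below it, and changed the sign of 11 that were called in neither. Leaving out 1 library at a time gave 1628, 15, 46 and 21. For idelalisib against ibrutinib in MEC1 the number of the 10 genes called was 1 in the main test, 2 with DESeq2, 2 in the fit of all 36 libraries and 0 in the edgeR fit of the 2 groups alone, where 1 gene had an unadjusted p under 0.05. Leaving out a library gave 1 to 3 there, 3 to 5 for ibrutinib in JVM2 (5 without ibrutinib library 3) and 3 to 8 for idelalisib in JVM2 (3 without DMSO library 2, 4 without DMSO library 3). The share of all genes called in each of these refits is not given here, and the cause of these changes was not tested. Depth limits DUSP6 in JVM2 (3 to 26 counts) and SPRY1 in EHEB with ibrutinib (9 to 14 counts), and both genes fell out of those lines under the stricter filter. No paired analysis was possible because the library numbers are not shared between the groups.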

Other observations

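Of 19 genes of the RAS to ERK cascade itself, 32 of 114 tests with a kinase inhibitor were called lower and 28 higher, and 27 of 57 with fludarabine were lower and 8 higher. Of all genes 19.7% were lower and 18.5% higher in the inhibitor tests, and 21.7% lower and 21.2% higher in those of fludarabine. The lines differed with the inhibitors. In MEC1 9 were lower and 2 higher with ibrutinib, and 12 and 2 with idelalisib (47.6% and 55% of all genes called). JVM2 had 1 lower and 6 higher, and 4 and 9 (29.4% and 44.2%), and EHEB 3 and 3, and 3 and 6 (19.7% and 33.3%). MAP2K1, which codes for the kinase MEK1, was lower with all 3 drugs in all 3 lines, from 171 ± 4.75 to 105 ± 2.87 CPM with ibrutinib in MEC1 (-0.70 ± 0.05, adjusted p = 1.64e-06, edgeR) and to 91.7 ± 3.81 CPM with idelalisib (-0.90 ± 0.05, adjusted p = 1.77e-07). The changes with ibrutinib and idelalisib were smaller than in MEC1 both in JVM2 (-0.27 and -0.52, adjusted p = 0.0067 and 5.53e-05) and in EHEB (-0.37 and -0.30, adjusted p = 0.00324 and 0.00632). RASGRP3, a RAS exchange factor of B cells, was called higher with both inhibitors and lower with fludarabine in all 3 lines. With idelalisib it went from 195 ± 3.72 to 480 ± 20.1 CPM in JVM2 (1.298 ± 0.04, adjusted p = 8.85e-09) and from 297 ± 0.92 to 532 ± 13.6 CPM in EHEB (0.84 ± 0.04, adjusted p = 9.87e-08), and with fludarabine to 137 ± 4.11 CPM in EHEB (-1.12 ± 0.04, adjusted p = 1.1e-08). KSR1, a scaffold that holds the kinases of the cascade together, was called in 7 of 9 comparisons. With idelalisib it rose from 73.6 ± 0.91 to 123 ± 3.75 CPM in JVM2 (0.74 ± 0.06, adjusted p = 2.38e-06) and from 101 ± 7.68 to 144.4 ± 9.59 CPM in EHEB (0.52 ± 0.07, adjusted p = 0.00014), and it fell in MEC1 from 98.2 ± 2.05 to 70.5 ± 7.13 CPM (-0.48 ± 0.08, adjusted p = 0.000485). It was also higher with ibrutinib in JVM2 and EHEB and with fludarabine in EHEB, and lower with fludarabine in JVM2.

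Of 7 kinases of the JNK and p38 branches, 16 of 42 inhibitor tests were lower and 2 higher, and 8 of 21 fludarabine tests lower and 4 higher, beside the same shares of all genes. MAP2K3, a p38 activator, fell with both inhibitors in each line, and in EHEB it rose with fludarabine from 47.2 ± 6.09 to 73.6 ± 6.31 CPM (0.64 ± 0.13, adjusted p = 0.00251). MAP2K6, the other p38 activator, fell in EHEB with idelalisib from 23.7 ± 2.91 to 4.38 ± 0.84 CPM (-2.43 ± 0.29, adjusted p = 8.75e-05) and fell in JVM2 with idelalisib (-0.83 ± 0.30, adjusted p = 0.0426). With fludarabine it rose in JVM2 (1.28 ± 0.30, adjusted p = 0.00446) and fell in EHEB (-1.09 ± 0.28, adjusted p = 0.00946). MAP2K7, a JNK activator, fell with all 3 drugs in MEC1 and JVM2 and rose with idelalisib in EHEB (0.38 ± 0.07, adjusted p = 0.00127).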
